A study of Mus musculus with 8 samples.

Results

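The genes described here mark the mesenchyme of the developing lung: fibroblasts and their matrix, pericytes (the mural cells of small vessels) and the cartilage lineage of the large airways. A list of 45 such genes was looked up on the array, and 43 had a probe set with a single gene symbol, out of 22180 genes measured in that way. Fbn1, which encodes fibrillin, and Zeb2, a repressor of epithelial genes, had no such probe set and were not analysed here. By role, 11 of the 43 are mesenchymal transcription factors, 4 mark the fibroblast surface, cytoskeleton or lipid droplet and 12 encode fibroblast matrix proteins. Another 7 belong to TGF-beta signalling, 2 mark pericytes and 7 mark cartilage, among them the transcription factor genes Sox5 and Sox6. For the comparison of cell classes, the first 4 of these roles were pooled as 34 fibroblast genes.

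The data are 8 arrays of RNA from the whole lungs of embryonic day 14.5 mice on a mixed C57BL/6 x 129S6 background, with each embryo on an array of its own. The 4 mutants were labelled Shh-cre:Ezh2-flox/flox and the 4 controls Shh-cre, so both groups carried Shh-cre. The labels name floxed Ezh2 alleles for the mutants only. Ezh2 is the methyltransferase of Polycomb repressive complex 2 (PRC2), which places the repressive mark on lysine 27 of histone H3. Controls 1 and 2 were littermates (litter 1), as were controls 3 and 4 (litter 2), mutants 1 and 2 (litter 3) and mutants 3 and 4 (litter 4). No litter held both genotypes, so litter and genotype can be separated only by comparing the spread between litters of 1 genotype with the difference between genotypes.

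Lung mesenchyme surrounds the branching epithelial tubes and gives rise to fibroblasts, airway smooth muscle, pericytes and the cartilage of trachea and bronchi. It receives Sonic hedgehog from the epithelium and returns growth factors that drive branching. The Shh-cre driver is active in cells that express Shh, which in the lung are epithelial, so mesenchymal cells are expected to keep both Ezh2 copies and their genes are read here as tissue beside the deleted epithelium. Neither the deletion nor histone methylation was measured in separated cells. In whole lung Ezh2 itself averaged 11.87 ± 0.05 in controls and 11.78 ± 0.02 in mutants on the log2 scale (SD, 4 embryos each). All mutants (11.75 to 11.80) lay below all controls (11.83 to 11.93), as for 3.6% of all genes. The adjusted p in limma was 0.652, so Ezh2 is a weak check of the labels. In whole-lung RNA, fewer cells of a type and less RNA per cell cannot be told apart, and a mesenchyme gene that is also expressed in epithelium cannot be assigned to either.

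All values are log2 expression as deposited, and log2 changes are mutant minus control with a standard error (SE) from limma. Adjusted p-values are Benjamini-Hochberg values over all 22180 genes, and a gene passes at an adjusted p of 0.05. Over all probe sets the median log2 value of an array was 7.05 to 7.12. The members' values ran from 5.67 to 13.33, with no detection calls, so low values such as those of the cartilage genes Matn1 (5.67 to 6.02) and Acan (6.03 to 6.33), under the median of the arrays in all 8 embryos, are not read as absence or as presence of cartilage. The fibroblast markers Pdgfra, Tcf21, Col1a1, Col1a2 and Col3a1 lay between 10.50 and 11.45 in every embryo, and Thy1 between 7.49 and 7.87.

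Most mesenchyme genes changed by less than 0.2 on the log2 scale, though this share was lower than over all genes. Meis2 and Tgfb2 rose in mutant lungs, none fell, and 41 did not pass. Both calls were close to the threshold and were lost on leaving out any single embryo, with littermates averaged (adjusted p 0.229 for both) and with each array centred on its median (0.122 for Meis2 and 0.0926 for Tgfb2). Over all genes 0.852% passed (134 higher and 55 lower). The median log2 change of the 43 genes was 0.05, beside 0.01 for all genes. Positive changes made up 28 of the 43 (65.1%), beside 52.9% of all genes. An unadjusted limma p under 0.05 was found for 9 of the 43, beside 9.87% of all genes. The log2 change was smaller than 0.2 in size for 35 of the 43 (81.4%), beside 91.6% of all genes. The 95% confidence interval was not adjusted for the number of genes. It stayed within 0.5 of 0 on the log2 scale for 41 of the 43, beside 21171 of all 22180 genes. The exceptions among the members were Twist2 and Col1a1.

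**Figure D1:**
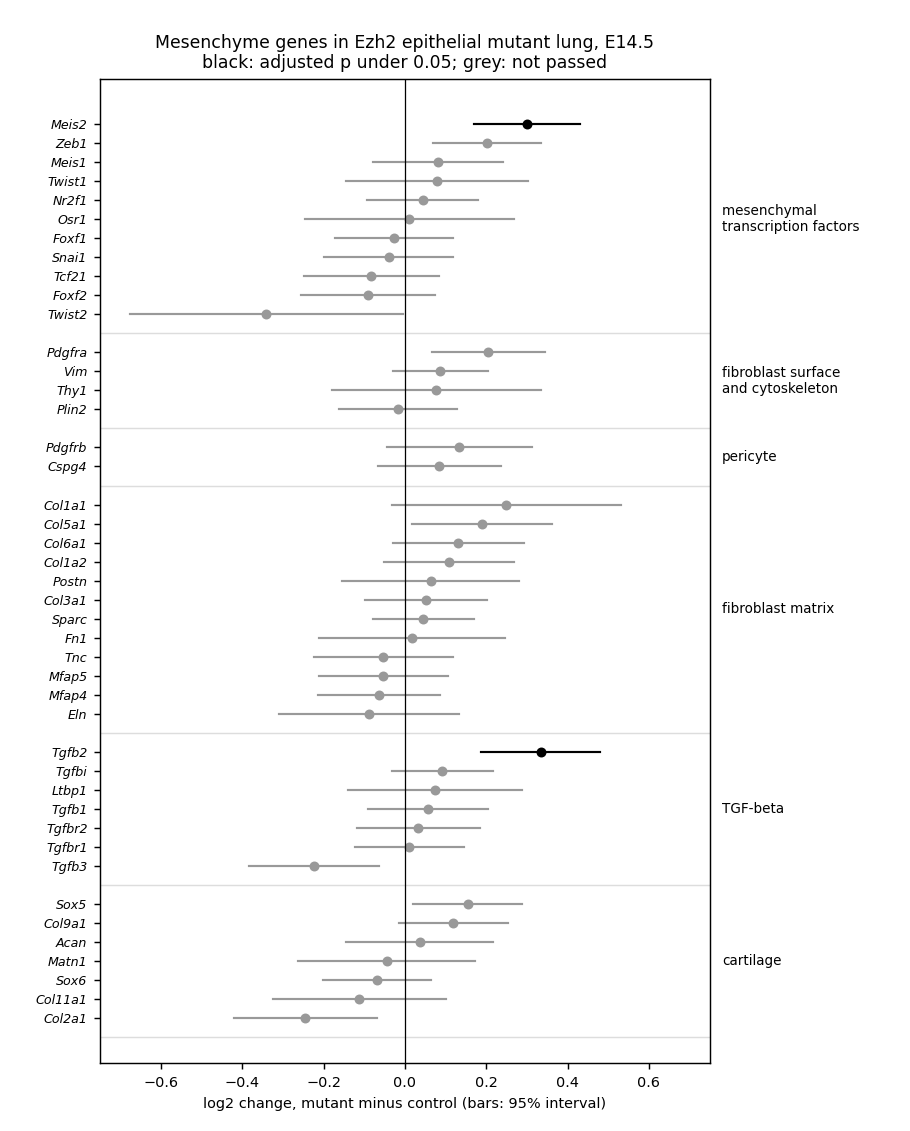
Log2 change of each of the 43 mesenchyme genes, mutant minus control, by role on a linear axis. Points are limma estimates from 4 embryos per group and bars are unadjusted 95% confidence intervals. Meis2 (0.30) and Tgfb2 (0.33) are the genes in black, which passed at an adjusted p of 0.05. All other genes are grey, and most lie within 0.2 of 0.

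Meis2 and Tgfb2 carry the result, so the DNA before their start sites is shown, with that of the Meis2 paralogue Meis1 for comparison. PRC2 in mammals is found mainly at promoters rich in CG pairs, and neither its binding nor DNA methylation was measured here. Each sequence is the 250 bases upstream of the annotated start, read 5′ to 3′ on the gene's strand from RefSeq's GRCm38.p6, with CG pairs in capitals. The order is Meis2 (chr2:116064620-116064869, minus strand), Meis1 (chr11:19018970-19019219, minus strand) and Tgfb2 (chr1:186705990-186706239, minus strand).
Meis2: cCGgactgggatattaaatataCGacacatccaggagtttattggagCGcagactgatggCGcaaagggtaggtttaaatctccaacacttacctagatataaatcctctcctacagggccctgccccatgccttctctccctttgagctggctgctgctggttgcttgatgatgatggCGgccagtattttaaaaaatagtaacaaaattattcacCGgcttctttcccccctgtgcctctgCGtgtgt
Meis1: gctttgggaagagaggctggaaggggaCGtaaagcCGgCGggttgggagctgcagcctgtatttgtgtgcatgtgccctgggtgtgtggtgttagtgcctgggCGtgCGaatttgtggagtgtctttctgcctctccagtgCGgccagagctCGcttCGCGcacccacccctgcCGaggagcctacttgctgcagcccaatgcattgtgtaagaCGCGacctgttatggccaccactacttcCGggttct
Tgfb2: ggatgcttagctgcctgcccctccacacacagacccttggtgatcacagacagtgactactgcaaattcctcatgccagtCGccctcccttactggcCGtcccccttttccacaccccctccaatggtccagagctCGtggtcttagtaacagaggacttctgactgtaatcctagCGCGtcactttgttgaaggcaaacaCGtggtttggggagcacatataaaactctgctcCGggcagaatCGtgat

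The Meis2 window held 7 CG pairs, a number reached or passed by 46.3% of the 32851 promoters in the table. The Tgfb2 window held 8 (43% of promoters) and the Meis1 window 13 (31.5%). None of these windows is therefore at the extreme of CG content. The 31 measured members with a promoter in the table had a median of 10 CG pairs, with the richest promoter taken for genes with several, beside 6 over all genes of the table. Twist2, with 23 pairs, Col5a1, with 28, and Tgfbr1, with 29, were among the richest members, and Col3a1 and Col9a1 had none. The Tgfb2 window also held CACGTG, the palindromic E-box, starting 51 bases before the start site, and TATAAA starting 31 bases before it. The Meis2 window held TATAAA too, starting 152 bases before the start site, and the Meis1 window held neither motif. With both strands searched, CACGTG was in 6.02% of all promoters and in 1 of the 31 members' genes, and TATAAA in 12.4% and in 8 of the 31. TGACAG, the core that MEIS proteins bind, was in none of these windows and in 15.9% of all promoters. These matches describe letters only.

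Of the transcription factors, Meis2 rose. MEIS proteins are homeodomain factors that act together with PBX and HOX proteins. Meis2 had log2 values of 10.48, 10.48, 10.37 and 10.50 in controls 1 to 4 and 10.80, 10.78, 10.76 and 10.69 in mutants 1 to 4. The groups did not overlap, and the lowest mutant lay 0.19 above the highest control. The log2 change was 0.30 ± 0.06 (SE), a 1.23-fold difference. The adjusted p was 0.0455. Meis1 overlapped between the groups, at 11.63, 11.73, 11.51 and 11.57 in controls and 11.81, 11.74, 11.60 and 11.62 in mutants, with a log2 change of 0.08 ± 0.07 (SE). The difference between the Meis2 and Meis1 log2 values, taken within each embryo, averaged −1.15 ± 0.07 (SD) in the 4 controls and −0.93 ± 0.07 in the 4 mutants. This pair was looked at because Meis2 passed and Meis1 did not, so the difference is a description with no test. The third paralogue, Meis3, had a log2 change of 0.16 and the partner genes Pbx2 and Pbx3 had −0.11 and −0.11, none of which passed.

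Among the genes grouped as mesenchymal transcription factors, Zeb1, a zinc finger repressor of epithelial genes, was the other whose groups did not overlap. Its values were 8.83, 8.78, 8.91 and 8.93 in controls and 9.07, 9.07, 9.11 and 9.00 in mutants, all mutants being above all controls by at least 0.07. The log2 change of 0.20 ± 0.06 (SE) did not pass (adjusted p 0.227). Twist2, a basic helix-loop-helix factor, had the largest change in size of all members and did not pass. Its values were 7.26, 7.33, 7.33 and 6.81 in controls and 6.59, 7.13, 6.89 and 6.76 in mutants. Control 4 lay among the mutants, the log2 change was −0.34 ± 0.15 (SE) and the adjusted p was 0.503. The factors best known for lung mesenchyme were close to 0. Foxf1, a forkhead factor downstream of hedgehog signalling, had a log2 change of −0.03 ± 0.07 (SE), Tcf21, a factor of lung fibroblast progenitors, −0.08 ± 0.08 and Osr1, a zinc finger factor of foregut mesenchyme, 0.01 ± 0.12. Foxf2, Nr2f1, Twist1 and Snai1 had log2 changes of −0.09, 0.04, 0.08 and −0.04.

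In TGF-beta signalling Tgfb2 rose, and the other ligand genes, receptors and pathway members did not pass. TGF-beta is secreted in a latent form bound to LTBP proteins and signals through the receptors encoded by Tgfbr1 and Tgfbr2 to regulate matrix production. Tgfb2 had values of 10.58, 10.70, 10.78 and 10.84 in controls and 11.09, 11.04, 11.07 and 11.03 in mutants. The mutants lay close together and at least 0.20 above the highest control. The log2 change was 0.33 ± 0.07 (SE), a 1.26-fold difference. The adjusted p was 0.0481. As whole lung was measured, neither this change nor that of Meis2 can be assigned to mesenchyme or to epithelium. Tgfb3 had values of 10.69, 10.62, 10.63 and 10.78 in controls and 10.47, 10.40, 10.36 and 10.58 in mutants. All mutants lay below all controls, by as little as 0.03, and the log2 change of −0.22 ± 0.07 (SE) did not pass (adjusted p 0.302). The Tgfb2 value minus the Tgfb3 value within each embryo was −0.10 to 0.15 in controls and 0.45 to 0.71 in mutants, a description of a pair seen to differ, with no test. Tgfb1 had a log2 change of 0.06 ± 0.07 (SE).

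The receptor genes Tgfbr1 and Tgfbr2 had log2 changes of 0.01 ± 0.06 (SE) and 0.03 ± 0.07, and Ltbp1, of the latent complex, had 0.07 ± 0.10. Tgfbi, a matrix protein induced by TGF-beta, had values of 11.99, 12.00, 11.99 and 11.92 in controls and 12.04, 12.07, 12.03 and 12.14 in mutants, without overlap but with a log2 change of only 0.09 ± 0.06 (SE) that did not pass (adjusted p 0.662). Of 22 further genes of the pathway, among them Smad transducers, latency proteins and activating integrins, none passed, 13 were higher and 9 lower, and the median log2 change was 0.04. The smallest p among them was that of Tgfbr3, the coreceptor betaglycan, with a log2 change of 0.23 ± 0.06 (SE) and an adjusted p of 0.148.

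The genes of the fibroblast surface and cytoskeleton did not pass. Pdgfra, the receptor for PDGF on fibroblast and myofibroblast progenitors, had values of 11.11, 11.14, 11.14 and 11.26 in controls and 11.34, 11.30, 11.38 and 11.45 in mutants. Every mutant lay above every control, by at least 0.04, with a log2 change of 0.21 ± 0.06 (SE) and an adjusted p of 0.249. Vim, the intermediate filament vimentin, had 13.16, 13.18, 13.20 and 13.21 in controls and 13.25, 13.24, 13.33 and 13.28 in mutants. This too was without overlap, but the log2 change was 0.09 ± 0.05 (SE), the adjusted p was 0.658, and a second, dimmer probe set of Vim gave −0.19. Thy1, a surface marker of fibroblasts, and Plin2, which coats the lipid droplets of lipofibroblasts, had log2 changes of 0.08 and −0.02. A list of 10 lipofibroblast genes, which shares Tcf21 and Pdgfra with the members, had none that passed and a median of −0.09, with 8 negative changes. Its gene of smallest p was Pdgfra.

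**Figure D2:**
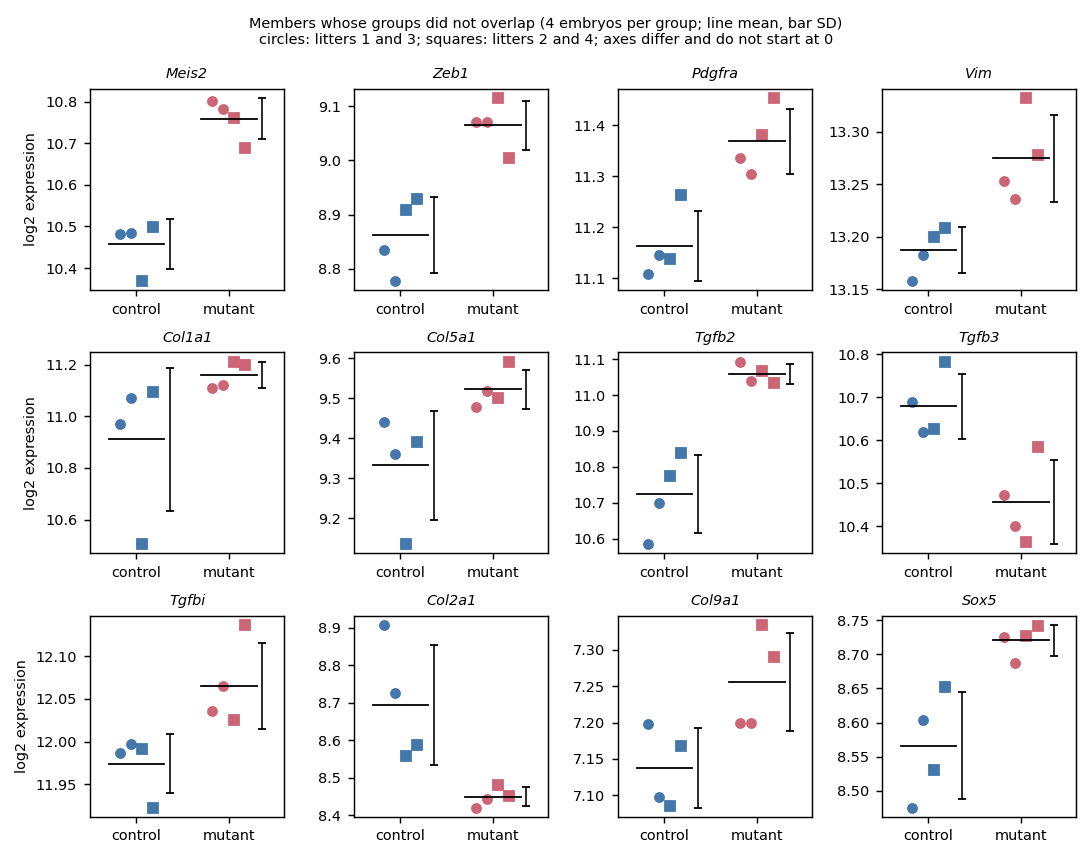
Log2 expression in each embryo for the 12 mesenchyme genes whose groups did not overlap, each on its own axis. Each point is 1 embryo, horizontal lines are group means and bars SD (n = 4). The gap between groups is widest for Meis2 and Tgfb2, and Tgfb3 and Col2a1 are the genes with lower values in mutants.

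Members whose groups did not overlap were mostly higher in mutants. All mutants lay above all controls for 10 members and below them for 2, or 27.9% of the 43, beside 8.07% of all genes (4.48% higher and 3.6% lower) and 10.8% of the genes brighter than the median, where 37 of the members lie. Only Meis2 and Tgfb2 of the 12 passed. The other 10 had adjusted p-values up to 0.662, and the gap between groups was as small as 0.0007 for Col9a1. The count depends in part on scaling. With each array centred on its median 8 members were higher and 2 lower, while over all genes the split of 993 higher and 798 lower became 646 and 1268. With quantile normalization of the gene values 11 members were higher and none lower, Tgfb3 and Col2a1 then overlapping.

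The difference between genotypes was also compared with the difference between litters of 1 genotype. It was larger than both within-genotype litter gaps for 19 of 43 members (44.2%), beside 23.8% of all genes. For Meis2 the litter gaps were −0.05 in controls and −0.07 in mutants (litter 2 minus 1 and litter 4 minus 3), both small beside 0.30. For Tgfb2 they were 0.17 and −0.01, beside 0.33. For Osr1 they were −0.28 and −0.14, beside 0.01, so litters differed more than genotypes. With 2 litters a genotype these gaps are a description only.

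No matrix gene passed, and control 3 was the lowest control for most of them. Fibrillar collagens form the interstitial matrix, elastin and microfibril proteins the elastic fibres, and fibronectin, periostin and tenascin C the adhesive matrix. Col1a1 had values of 10.97, 11.07, 10.50 and 11.10 in controls and 11.11, 11.12, 11.21 and 11.20 in mutants. Control 3 was far below the other 7 embryos, whose values spanned 0.24. The log2 change was 0.25 ± 0.13 (SE; adjusted p 0.581), and without control 3 it was 0.11 ± 0.06. Col5a1 had 9.44, 9.36, 9.13 and 9.39 in controls and 9.48, 9.52, 9.50 and 9.59 in mutants, again with control 3 lowest. Its log2 change was 0.19 ± 0.08 (SE; adjusted p 0.448), and 0.12 without control 3.

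Fn1, the fibronectin gene, had 12.15, 12.15, 11.71 and 12.15 in controls and 12.03, 12.06, 12.05 and 12.07 in mutants. Its log2 change was 0.02 ± 0.10 (SE), and −0.09 ± 0.05 without control 3, neither of which passed. Control 3 was the lowest control for 8 of the 12 matrix genes and for 19 of all 43 members (44.2%), while over all genes it was the lowest control for 26.9%. Control 4, its littermate, was the highest control for 6 of the 12, beside 22.8% of all genes. Control 3 was the highest control for 3 of the 12, and for 32.6% of all genes. Among mutants, mutant 3 was the highest for 7 of the 12, beside 32.0% of all genes. Col1a2, Col3a1 and Col6a1 had log2 changes of 0.11, 0.05 and 0.13, Eln −0.09, Postn 0.06, Tnc −0.05, Sparc, a collagen-binding matrix protein, 0.05, and the microfibril genes Mfap4 and Mfap5 −0.06 and −0.05. The median of the 12 was 0.05, and 0.03 without control 3.

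**Figure D3:**
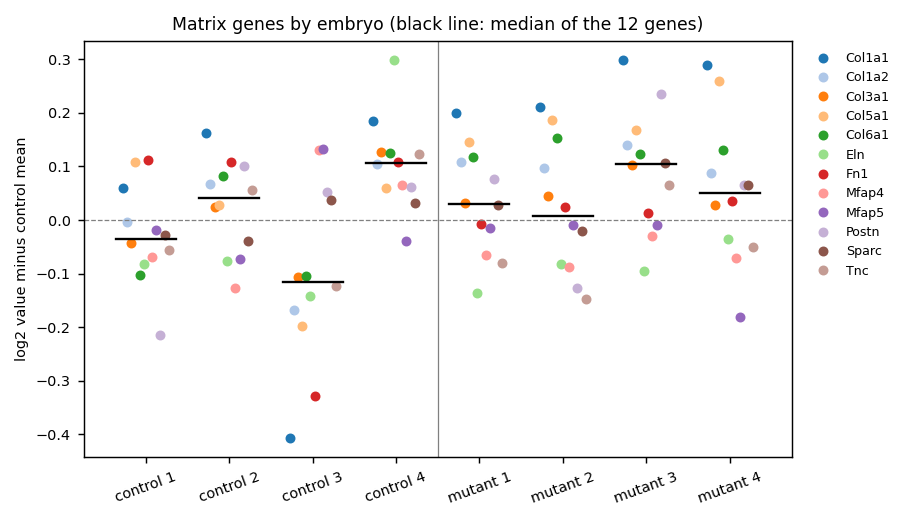
Log2 value of each of the 12 matrix genes in each embryo minus that gene's control mean. Points are genes, coloured as in the key, and black lines are the median of the 12 in that embryo. The median is −0.12 in control 3 and 0.11 in its littermate control 4, and 0.01 to 0.10 in the 4 mutants.

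Of 19 further matrix genes, fibromodulin (Fmod), a proteoglycan that binds collagen fibrils, fell by 0.70 ± 0.07 (SE) on the log2 scale, at an adjusted p of 0.000315. No other gene of this list passed, and its median log2 change was 0.01 with a mean of −0.01. Dimmer second probe sets of Col1a2, Col5a1 and Col6a1 gave log2 changes of −0.003, 0.05 and −0.17, where the brighter ones gave 0.11, 0.19 and 0.13, so Col6a1 differed in sign between its probe sets.

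Pericyte genes did not pass. Pdgfrb, the PDGF receptor that pericytes need for recruitment to vessels, had values of 11.28, 11.30, 11.04 and 11.35 in controls and 11.32, 11.41, 11.35 and 11.42 in mutants. The groups overlapped, with control 3 lowest. The log2 change was 0.13 ± 0.08 (SE) with a 95% interval of −0.05 to 0.31, and without control 3 it was 0.06. Cspg4, the proteoglycan NG2 of pericytes, had a log2 change of 0.08 ± 0.07 (SE). Of 15 further pericyte genes none passed, 11 were higher and 4 lower, and the median was 0.06. The smallest p belonged to Rgs5, a regulator of G protein signalling, with a log2 change of −0.18 ± 0.09 (SE) and an adjusted p of 0.584.

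Cartilage genes had changes of both signs and none of the 7 passed. Col2a1, the main collagen of cartilage, had values of 8.91, 8.73, 8.56 and 8.59 in controls and 8.42, 8.44, 8.48 and 8.45 in mutants. All mutants lay below all controls, by at least 0.08, and litter 1 lay above litter 2 by as much as the genotypes differed. The log2 change was −0.24 ± 0.08 (SE; adjusted p 0.304), while the gap between the control litters was −0.24. Sox5, which acts with Sox6 and Sox9 in chondrocyte differentiation, had 8.48, 8.60, 8.53 and 8.65 in controls and 8.73, 8.69, 8.73 and 8.74 in mutants. There was no overlap, and the log2 change of 0.15 ± 0.06 (SE) did not pass (adjusted p 0.43). Col9a1 had 7.20, 7.10, 7.09 and 7.17 in controls and 7.20, 7.20, 7.33 and 7.29 in mutants, where the highest control and the lowest mutants were nearly equal, with a log2 change of 0.12 ± 0.06 (SE). Col11a1, Sox6, Matn1 and Acan, the gene of aggrecan, had log2 changes of −0.11, −0.07, −0.05 and 0.04. Among 21 further cartilage genes none passed, 12 were higher and 9 lower, and the median was 0.05. The smallest p belonged to Fgfr3, a receptor of growth plate chondrocytes, with a log2 change of −0.33 ± 0.08 (SE) and an adjusted p of 0.145.

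Set side by side, the median log2 change was 0.05 for the 34 fibroblast genes, 0.11 for the 2 pericyte genes and −0.05 for the 7 cartilage genes. The medians in single embryos overlapped between genotypes for each class: from −0.02 to 0.05 in controls and 0.03 to 0.08 in mutants for fibroblasts, −0.11 to 0.12 and 0.07 to 0.15 for pericytes, and −0.05 to 0.05 and −0.05 to 0.16 for cartilage. With the wider lists of matrix, pericyte and cartilage genes the medians were 0.01, 0.06 and 0.05. Of 21 further mesenchymal regulators none passed, 18 were higher and 3 lower, with a median of 0.05. Their medians in single embryos did not overlap, at −0.03 to 0.03 in controls and 0.06 to 0.11 in mutants, which was not tested. The medians of the 12 heart genes described below did not overlap either, at −0.028 to 0.026 in controls and 0.035 to 0.194 in mutants. Among the regulators Isl1, a LIM-homeodomain factor of second heart field and foregut mesenchyme, had the smallest p. Its log2 change was 0.60 ± 0.13 (SE) and its adjusted p was 0.0661. Of 20 genes for mesenchymal and partner signals such as Fgf10 and Wnt2 none passed, and the median was −0.03 with a mean of 0.01. The smallest p was that of Wnt2b, a Wnt ligand, with a log2 change of 0.55 ± 0.20 (SE) and an adjusted p of 0.362.

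Some markers of other cells also passed, and the part of these cells in the mesenchyme values was not tested. Of 18 epithelial markers 14 were lower and 4 higher, with a median log2 change of −0.09, and 1 passed in each direction. Foxa1, a transcription factor of lung endoderm, was lower by a log2 change of −0.56 ± 0.06 (SE) and Ovol1, a zinc finger factor of epithelia, rose by 0.41 ± 0.06 (log2). Ovol1 had an adjusted p of 0.0076 and passed in 20 of the 23 alternatives that tested it, with adjusted p up to 0.107. Its values of 6.38 to 6.92 lay under the median of the arrays in every embryo. The mean log2 value of the 18 markers ran from 9.59 to 9.78 in controls and 9.59 to 9.65 in mutants. Of 12 airway smooth muscle markers, themselves of mesenchymal origin, 11 were lower, with a median of −0.12, and Cnn1, which encodes calponin, fell by 0.46 ± 0.09 (SE). Its adjusted p was 0.0366 and the call was lost in 10 of 24 alternatives, among them littermates averaged (0.0512), the replicate number as a block (0.0764) and leaving out control 1, control 2 or mutant 1, 3 or 4 (0.0515 to 0.0928). The mean log2 value of that list was 9.94 to 10.01 in controls and 9.74 to 9.87 in mutants. Of 15 endothelial markers 13 were higher and none passed, with a median of 0.08. Their mean log2 value was 9.8927 to 10.0129 in controls and 10.0085 to 10.0833 in mutants, so the groups overlapped. Vwf, the von Willebrand factor gene, had the smallest p among them, with a log2 change of 0.24 and an adjusted p of 0.176.

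Among 10 mesothelial markers Upk1b, a uroplakin, rose by 0.46 ± 0.07 (SE) on the log2 scale and the median was −0.003 with a mean of 0.07. The Upk1b call passed in 19 of 24 alternatives. It was lost without control 4 or mutant 4 (adjusted p 0.0515 and 0.0517) and with littermates averaged (0.0983). With the litter block dropped, it was also lost without litter 2 or 4 (0.0634 and 0.0724). Among 9 genes of neural crest and neurons Ret, a receptor tyrosine kinase, fell by 0.43 ± 0.07 (SE), with a median of −0.01 for the list. The Ret call passed in 20 of 24 alternatives. It was lost without control 4 (adjusted p 0.0775) and with littermates averaged (0.0795). With the litter block dropped, it was also lost without litter 2 or 3 (0.0731 and 0.0649). None passed in the 7 lists that follow. Changes were positive for 3 of 7 erythroid genes (median −0.01), 9 of 11 leukocyte genes (0.04), 11 of 12 heart genes (0.12) and 8 of 12 skeletal muscle genes (0.03). They were positive for 5 of 18 proliferation genes (median −0.05), 12 of 17 hypoxia genes (0.05) and 9 of 12 immediate early genes (0.05). The genes of smallest p were Slc4a1 (log2 change −0.10), Csf1r (0.09), Actc1 (−0.48), Pax3 (0.24), Mcm3 (−0.23), Egln1 (−0.15) and Jun (−0.17). Actc1 was the heart gene of negative sign, and Egln1 and Jun were also opposite in sign to most of their lists.

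**Figure D4:**
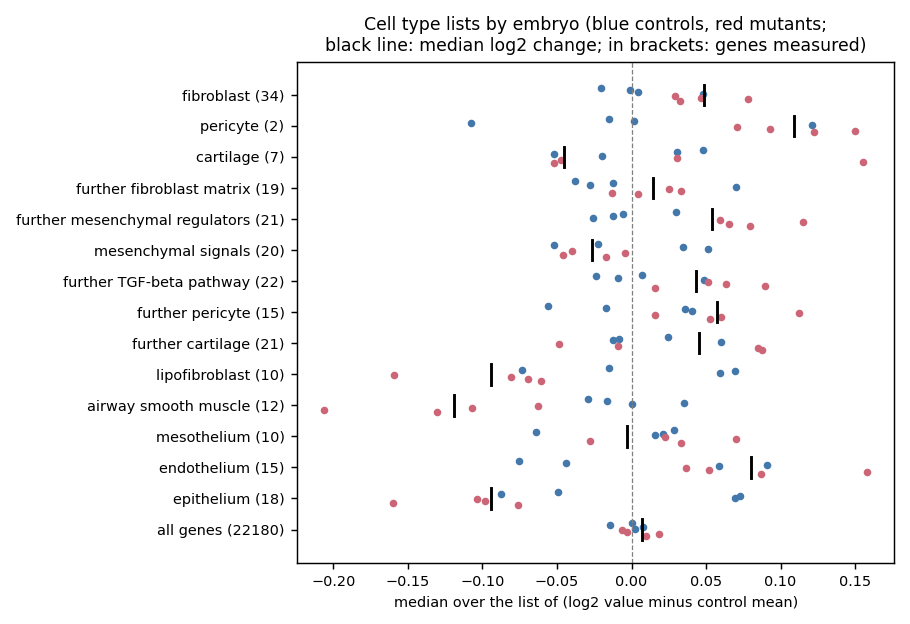
For each list, the median over its genes of the log2 value minus the control mean, in each embryo (blue controls, red mutants). The black line is the median log2 change between genotypes and the number of measured genes is in brackets. The fibroblast, pericyte and cartilage rows overlap between genotypes. The 4 mutants lie above the 4 controls in the row of further mesenchymal regulators and below them in the airway smooth muscle row.

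The calls of Meis2 and Tgfb2 lay close to the threshold. The direction held in all 24 alternative settings for both genes, with log2 changes of 0.27 to 0.33 for Meis2 and 0.25 to 0.42 for Tgfb2. Each passed in 8 of the 24. Without any single embryo the adjusted p was 0.0647 to 0.115 for Meis2 and 0.0608 to 0.142 for Tgfb2. With the Xist level, which separates 3 embryos with low values from 5 with high ones, as a covariate for sex, the adjusted p was 0.0157 for Meis2 and 0.0193 for Tgfb2.

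**Figure D5:**
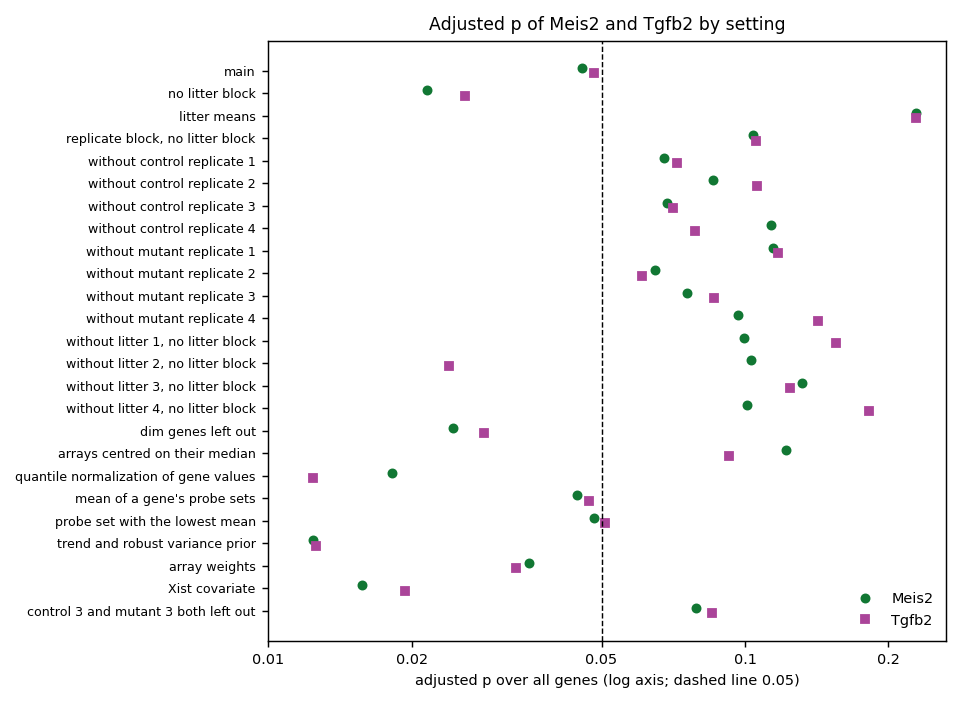
Adjusted p of Meis2 (circles) and Tgfb2 (squares) over all genes under the main setting and 24 alternatives, on a log axis with the threshold of 0.05 as a dashed line. Both lie left of the line in the main setting (0.0455 and 0.0481) and right of it whenever 1 embryo is left out.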

How the data were processed

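Whole-lung RNA of 8 embryos (100 ng each) was copied from a poly(T) primer and hybridised to 1-colour arrays, per the labels' protocols. The authors deposited log2 values per probe set, made with RMA in oligo per the submitters' processing notes; its version and options are not given in the sources used. RMA equalises the arrays, so a change shared by most genes is not visible. The platform annotation gave 1 symbol to 23521 of 41345 probe sets, several to 1814 and left 16010 out; 23328 of the single names matched RefSeq (GRCm38.p6), and 0 symbols were updated. The brightest probe set stood for each gene. Genotypes were tested by limma 3.58.1 (R 4.3.3), two-sided, with a random litter block of consensus correlation 0.153 and Benjamini-Hochberg adjustment. The fit was tested on simulated data, where the pass rule covered only changes larger than those of Meis2 and Tgfb2. How often changes of their size are recovered is not given here. For arrays, their number limits the precision.

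Every member is named. Values in every embryo are given for members that passed, whose groups did not overlap or that changed most in their class, and paralogues of called genes stand beside them. Other lists are represented by the genes that passed or the one of smallest p. Members, lists and tests were chosen with earlier results of these data known. Alternatives covered litters, left-out embryos, dim genes, scaling, probe sets, variance prior, weights and Xist. Figures used Python 3.11.15 and matplotlib 3.10.9.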

Additional observations from a re-analysis of the deposited data

Results flagged for a closer look

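A single embryo stood far from the other 3 of its group for 11 of the 86 groups tested (43 mesenchyme genes in 2 genotypes). For independent normal values about 1 in 20, or 4.3, would be flagged. The genes were measured in the same embryos, so the groups are not independent. The share over all genes was not computed, so the count is not read as particular to these genes. Control 3 was lowest for Meis2 (log2 value 10.37) and Fn1 (11.71) and highest for Tcf21 (11.22). Control 4 was lowest for Twist2 (6.81) and Tgfbi (11.92) and highest for Eln (10.45). Control 1 was lowest for Postn (10.35). Mutant 2 was lowest for Twist1 (6.82) and highest for Col11a1 (8.02). Mutant 3 was lowest for Tgfbr1 (9.79) and mutant 4 for Mfap5 (6.83).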

How the results depend on the processing

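The count of 2 mesenchyme genes higher in mutants was also 2 without the litter block. It was 0 with littermates averaged, with arrays centred on their median, and with control 3 and mutant 3 both left out, the last an alternative chosen after seeing the data. It was 0 (lowest and highest 0) without any single embryo, fits with fewer samples. It was 1 with the probe set of lowest mean. Other fits changed a second choice by also dropping the litter block: the count was then 0 with the replicate number as a block and without litter 1, 3 or 4, and 1 without litter 2. No member fell in any setting, and the members' median log2 change was 0.02 to 0.07. Replicate numbers in the labels do not pair samples, since same-numbered embryos come from different litters; with that replicate block the adjusted p was 0.104 for Meis2 and 0.106 for Tgfb2. Over all genes, 134 higher and 55 lower became 65 and 33 with littermates averaged, and 361 and 313 with Xist as a covariate. Genes lower were 91 with quantile normalization. Without the litter block 190 were higher and 95 lower; with that block dropped as well, they were 98 and 90 without litter 1 and 75 and 23 without litter 4. Without single embryos 73 to 157 were higher and 28 to 75 lower, lowest without mutant 4 and next (89 and 32) without control 4. None of the other 41 members passed in any alternative that tested it; leaving out dim genes removed 6 of them. The cause of these shifts was not tested. Signal over background was not analysed here, so changes of dim members such as Matn1 and Acan may be understated.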
